A study of Homo sapiens with 12 samples.

Results

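The TGF-beta pathway genes examined here are the ligand TGFB1, the receptors TGFBR1 and TGFBR2, the signal transducer SMAD3, the inhibitory SMADs SMAD6 and SMAD7, the corepressors SKI and SKIL, and the ubiquitin ligases SMURF1 and SMURF2. They were taken by gene symbol, 10 of the 58191 rows of the deposited table, and each symbol had 1 row. RNA sequencing covered 12 libraries from human leukaemia cell lines, with 3 libraries in each of 4 groups: K562 with EVI1 overexpression, K562 control (labelled wild type), cells labelled MOLM14 with EVI1 overexpression, and control cells labelled MOLM14 (also labelled wild type). K562 cells derive from blast crisis of chronic myeloid leukaemia and look erythroid. MOLM14 cells derive from acute myeloid leukaemia of monocytic type and are known for a mutated, expressed FLT3 receptor. The labels do not give the vector, the promoter that drove EVI1, the number of clones or any drug treatment, nor whether replicates were separate cultures, so p-values measure only the spread between these samples.

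TGF-beta binds the receptor TGFBR2, which recruits and phosphorylates TGFBR1. TGFBR1 then phosphorylates SMAD2 and SMAD3, which join SMAD4 and act on transcription in the nucleus. SMAD7 and SMAD6 block the receptors or the receptor-regulated SMADs, SKI and SKIL repress SMAD complexes on DNA, and SMURF1 and SMURF2 mark SMADs and, through SMAD7, the receptors for degradation. SMAD7 and SKIL are themselves induced by TGF-beta in many cells, which makes them feedback inhibitors. EVI1, the product of MECOM, is a transcription factor with zinc fingers that is known to bind SMAD3 and to repress its activity. The comparisons here ask how the level of each of these transcripts differed with EVI1 overexpression.

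Levels are in FPKM, which counts fragments relative to gene length and library size, as scaled across libraries by the authors. Library sums of FPKM ranged from 765285 to 898547 in K562 and from 599102 to 630579 under the MOLM14 label. From the spacing of low values, relative K562 depths ranged from 37.75 in control replicate 1 to 78.25 in EVI1 replicate 1 (in units of 1e6 fragments), and the depth of the other libraries is unknown. Gene names could be used for the columns labelled MOLM14 only in the first 5510 rows, before the first identifier of a pseudoautosomal copy on chromosome Y. Within those rows, in 11 windows of 500, Pearson's r across genes between the control means of the labels was 0.9646 at its lowest, and past them its median over 105 windows was -0.00445. TGFB1, TGFBR1, SMAD7 and SMURF2 lay in the usable rows, and the other 6 genes were followed in K562 alone. Counts over all rows under the MOLM14 label need no gene names and use the whole table. Markers in the libraries labelled MOLM14 went partly against that label. FLT3 was listed at 0 in 5 of the 6 libraries and at 0.00915 FPKM in the sixth, while the erythroid factor GATA1 averaged 145 ± 4.14 FPKM in their EVI1 libraries and 113 ± 8.59 FPKM in their controls (SD, n = 3 each). The erythroid factor KLF1 averaged 59.6 ± 3.79 and 34.5 ± 2.35 FPKM in the same groups. Of 6 monocyte and myeloid genes with usable rows, LYZ, CD33 and PTPRC had mean levels of at least 1 FPKM in both groups, at 35.5, 10.4 and 69.6 FPKM in EVI1 libraries and 80.9, 34.8 and 45.7 FPKM in controls. In K562 the same genes averaged 12.5, 53.3 and 21.5 FPKM in EVI1 libraries and 21.8, 24.7 and 7.19 FPKM in controls. Their presence was therefore not particular to the MOLM14 label. FCN1 was listed at 0 throughout, and mean MPO levels were 0.0333 FPKM in EVI1 libraries and 0.0256 FPKM in controls. The 6 libraries are therefore called libraries labelled MOLM14 throughout.

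MECOM was higher in every EVI1 library than in any control of its label. It stood at 25.95, 23.9 and 22.1 FPKM in K562 EVI1 libraries, against 14.6, 11.2 and 10.9 FPKM in K562 control libraries. It stood at 17.8, 18.04 and 16.9 FPKM in EVI1 libraries labelled MOLM14, against 9.66, 9.02 and 8.55 FPKM in their controls. The ratio of group means was 1.96 in K562 and 1.94 under the MOLM14 label, and the sources used here do not say whether reads of the introduced EVI1 were counted in that row.

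In K562, EVI1 libraries held more RNA of the feedback inhibitors SMAD7, SKIL and SMAD6 and of the receptor TGFBR2, and less of TGFBR1 and SMURF1. A gene is called, and said to rise or fall, when its Benjamini-Hochberg adjusted p was under 0.05 in limma's moderated test on log2(FPKM + 1). All 10 genes passed the filter of at least 1 FPKM in at least 3 of the 6 libraries, TGFBR2 through the EVI1 libraries alone. Of the 10, 4 rose, 2 fell and 4 were not called. Over all genes tested in K562, 51.9% were called, 28.2% as rises and 23.7% as falls, so the share called among the 10 was near that of all genes. SMAD7 and TGFBR2 rose by at least 1 log2 unit, as did 7.21% of all tested genes. Nothing is read from that count of 2, since TGFBR2 had to differ to pass the filter. TGFBR2 is also in the count of 4 rises and in the counts of groups without overlap that follow. Those counts are therefore a description too. The groups did not overlap for 8 of the 10 genes and for 60.6% of all tested genes. EVI1 libraries were above all controls for 5 of the 10 (32.4% of all tested genes) and below them for 3 (28.2%). The median log2 fold change was 0.31 over the 10 genes and 0.00500 over all tested genes. In these bulk samples, a change in the share of cells that express a gene and a change in RNA per cell cannot be told apart.

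**Figure D1:**
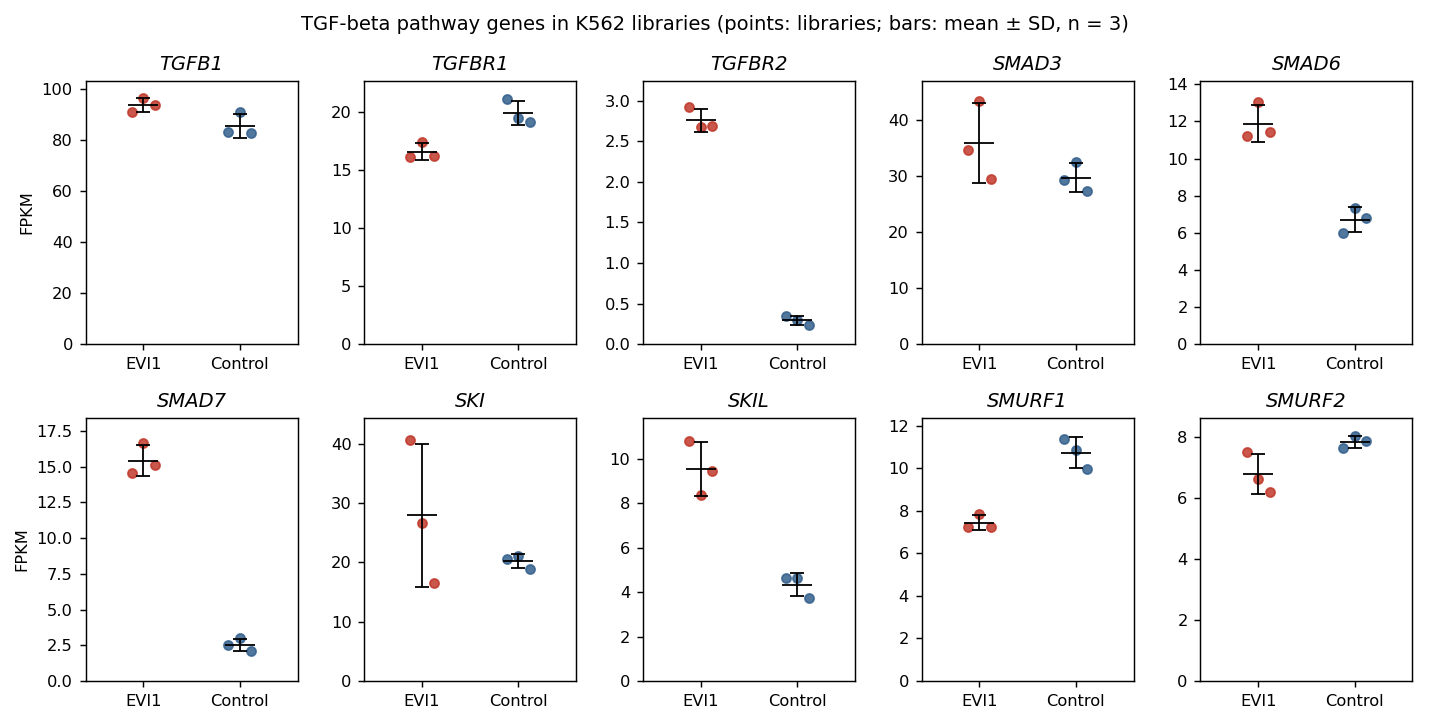
FPKM of the 10 TGF-beta pathway genes in K562 libraries, EVI1 at the left of each panel and control at the right; points are libraries and bars are mean ± SD (n = 3), and each axis starts at 0. SMAD7, SKIL, SMAD6 and TGFBR2 stand clear of control, while the EVI1 libraries of SKI spread from 16.6 to 40.7 FPKM.

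The ligand was nearly level, while the receptors moved in opposite directions. TGFB1 had 90.96, 96.4 and 93.6 FPKM in EVI1 libraries, against 83.0, 90.93 and 82.6 FPKM in controls. The groups were separated only by the gap between 90.96 and 90.93 FPKM, and TGFB1 was not called (log2 fold change 0.13, 95% interval -0.03 to 0.29, limma adjusted p = 0.146). The TGFB1 row spans chromosome 19 from 41301587 to 41353911 on the minus strand in GRCh38. On the opposite strand it overlaps HNRNPUL1, at means of 120 FPKM in EVI1 and 126 FPKM in control libraries, and CCDC97, at 11.8 and 8.52 FPKM. The labels do not say whether strand was used in counting, so reads of these neighbours cannot be told apart from those of TGFB1 where they overlap.

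TGFBR2, which encodes the receptor that binds the ligand, had 2.92, 2.67 and 2.69 FPKM in EVI1 libraries, against 0.342, 0.302 and 0.232 FPKM in controls. Every EVI1 library was above 1 FPKM and every control library was below it. The ratio of group means was 9.46, and on the log2(FPKM + 1) scale, which understates changes of low genes, the log2 fold change was 1.54 (SE 0.10, limma adjusted p = 9.65e-06). Since TGFBR2 had to differ to pass the filter, nothing is read from that adjusted p. With no expression filter the limma adjusted p was 5.81e-04. TGFBR2 was the least abundant of the 10 in both groups. TGFBR1, the partner that carries the signal onward, had 16.2, 17.4 and 16.2 FPKM in EVI1 libraries, against 21.1, 19.5 and 19.2 FPKM in controls. All EVI1 libraries lay below all controls, with a log2 fold change of -0.25 (SE 0.08, limma adjusted p = 0.0256). That call was lost when libraries were rescaled to one FPKM sum (adjusted p = 0.145) and when K562 control replicate 1 or 2 or EVI1 replicate 1 or 3 was left out (adjusted p = 0.111, 0.0531, 0.0786 and 0.0864 in that order). The within-library ratio of TGFBR2 to TGFBR1, which does not depend on library scaling, was 0.181, 0.153 and 0.166 in EVI1 libraries and 0.0162, 0.0155 and 0.0121 in controls.

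SMAD3, the receptor-regulated SMAD that EVI1 is known to bind, had 34.7, 43.5 and 29.5 FPKM in EVI1 libraries, against 29.3, 32.5 and 27.4 FPKM in controls. The groups overlapped, since EVI1 replicate 3 lay within the control range. SMAD3 was not called (log2 fold change 0.25, 95% interval -0.06 to 0.56, limma adjusted p = 0.151). The log2 fold change was 0.38 and called without EVI1 replicate 3 (limma adjusted p = 0.0391), and 0.11 without EVI1 replicate 2 (limma adjusted p = 0.434).

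The inhibitory SMADs rose. SMAD7 had 14.5, 16.7 and 15.1 FPKM in EVI1 libraries, against 2.50, 2.97 and 2.09 FPKM in controls. The lowest EVI1 library stood far above the highest control, and the ratio of group means was 6.12 (log2 fold change 2.23, SE 0.12, limma adjusted p = 2.72e-06). SMAD6, which is best known as an inhibitor of BMP signalling, had 11.2, 13.0 and 11.4 FPKM in EVI1 libraries, against 5.98, 7.34 and 6.81 FPKM in controls. Its groups did not overlap, with a ratio of means of 1.77 (log2 fold change 0.74, SE 0.10, limma adjusted p = 4.79e-04). SMAD6 and SMAD3 both lie on chromosome 15, at 66702228 to 66782848 and 67063763 to 67195195 in GRCh38, on the plus strand. The ratio of SMAD6 to SMAD3 within a library was 0.322, 0.299 and 0.387 in EVI1 libraries and 0.205, 0.226 and 0.248 in controls. For SMAD7 over TGFBR1, the receptor that SMAD7 protein inhibits, the ratio of RNA levels was 0.898, 0.956 and 0.931 in EVI1 libraries and 0.118, 0.152 and 0.109 in controls.

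The corepressors differed from each other. SKIL, also known as SnoN, had 10.8, 8.37 and 9.45 FPKM in EVI1 libraries, against 4.63, 4.66 and 3.74 FPKM in controls. Its groups did not overlap and the ratio of means was 2.20 (log2 fold change 0.98, SE 0.12, limma adjusted p = 2.60e-04). SKIL lies on chromosome 3 from 170357678 to 170396835 in GRCh38, on the same chromosome as MECOM. SKI, its close relative, had 40.7, 26.7 and 16.6 FPKM in EVI1 libraries, against 20.6, 21.1 and 18.9 FPKM in controls. EVI1 replicates 1 and 2 stood above all controls and EVI1 replicate 3 below them. The SD of log2 values of SKI in EVI1 libraries was 0.623, against 0.0813 in controls, and 1.08% of all tested genes had a larger SD in the EVI1 libraries. SKI was not called (log2 fold change 0.36, 95% interval -0.23 to 0.96, limma adjusted p = 0.268). Leaving out EVI1 replicate 3 gave 0.68 and a call (limma adjusted p = 0.0121), while leaving out EVI1 replicate 1 gave 0.06 (limma adjusted p = 0.809), so the value for SKI depends on both libraries.

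Of the ubiquitin ligases, SMURF1 fell and SMURF2 was not called. SMURF1 had 7.24, 7.84 and 7.21 FPKM in EVI1 libraries, against 11.4, 10.8 and 9.95 FPKM in controls. It fell without overlap (log2 fold change -0.48, SE 0.09, limma adjusted p = 0.00227), to a mean 0.692 times that of controls. The SMURF1 gene overlaps TRRAP on the opposite strand over 23394 bases, and no value of TRRAP is used here. SMURF2 had 7.48, 6.62 and 6.20 FPKM in EVI1 libraries, against 7.62, 8.03 and 7.84 FPKM in controls. All EVI1 values were below the controls, EVI1 replicate 1 narrowly, and SMURF2 was not called (log2 fold change -0.19, 95% interval -0.40 to 0.03, limma adjusted p = 0.123). Quantile normalization gave SMURF2 a log2 fold change of -0.29 and a call (adjusted p = 0.0265).

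**Figure D2:**
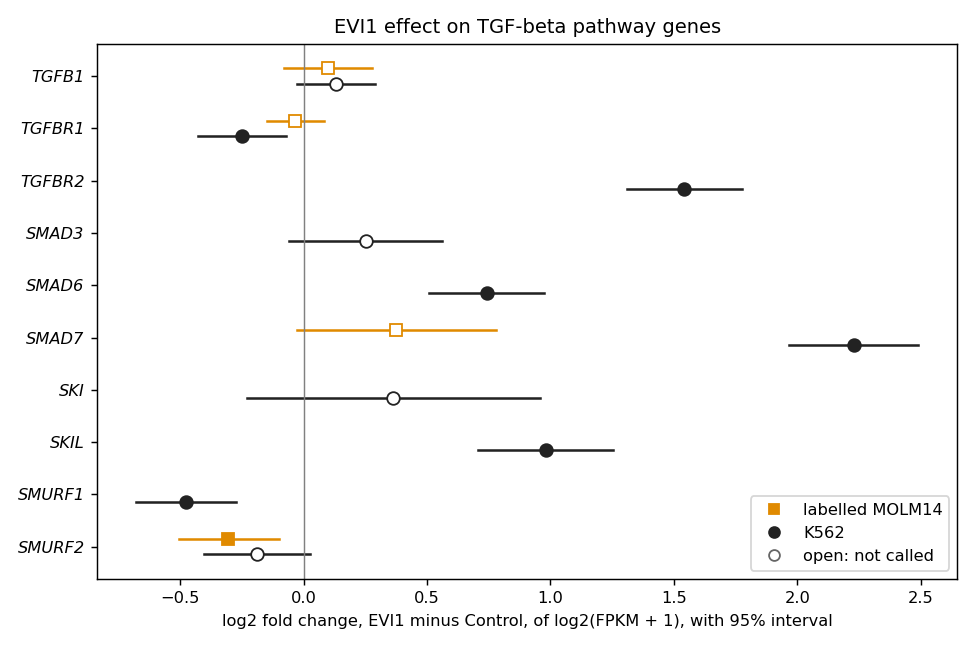
Log2 fold changes of log2(FPKM + 1), EVI1 minus control, with 95% intervals from limma for the libraries labelled MOLM14 (squares, 4 genes with usable rows) and for K562 (circles); filled symbols are called and open ones are not. SMAD7 had 0.38 under the MOLM14 label and 2.23 in K562.

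SMAD7 moved 4 places in the order of levels, more than any other of the 10 genes. In EVI1 libraries of K562 the mean FPKM ran from TGFB1 (93.7 ± 2.73) through SMAD3, SKI, TGFBR1, SMAD7, SMAD6, SKIL, SMURF1 and SMURF2 to TGFBR2 (2.76 ± 0.141; SD, n = 3 each). In controls it ran from TGFB1 (85.5 ± 4.68) through SMAD3, SKI, TGFBR1, SMURF1, SMURF2, SMAD6, SKIL and SMAD7 to TGFBR2 (0.292 ± 0.0554). SMAD7 was the fifth at 15.4 ± 1.11 FPKM in EVI1 libraries and the ninth at 2.52 ± 0.441 FPKM in controls. Library ranges of neighbours overlapped in EVI1 libraries for SMAD3 and SKI, SKI and TGFBR1, TGFBR1 and SMAD7, and SMURF1 and SMURF2, and in controls for SKI and TGFBR1 alone.

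Promoter windows of the 4 genes that rose are printed to show what sequence lies at their starts. RefSeq windows of 300 bases, 250 before and 50 after a transcript start in GRCh38.p14, were found for 9 of the 10 genes, all but SKI. Capitals mark matches to any of 6 motifs searched on both strands. These were the palindromic SMAD element GTCTAGAC and the SMAD box CAGACA, which have AGAC in common. The AP-1 element was TGANTCA. The EVI1 zinc finger elements were GACAAGATA for the first domain and GAAGATGAG for the second. The GATA element was AGATAA, which shares AGATA with the end of the first EVI1 element.
SMAD6, chr15:66701986-66702285, plus strand: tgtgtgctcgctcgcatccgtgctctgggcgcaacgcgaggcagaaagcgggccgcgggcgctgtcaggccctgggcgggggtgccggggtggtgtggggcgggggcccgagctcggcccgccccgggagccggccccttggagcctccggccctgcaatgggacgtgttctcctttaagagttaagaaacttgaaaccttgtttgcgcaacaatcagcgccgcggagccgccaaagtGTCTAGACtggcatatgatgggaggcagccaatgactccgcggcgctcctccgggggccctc
SMAD7, chr18:48950916-48951215, minus strand: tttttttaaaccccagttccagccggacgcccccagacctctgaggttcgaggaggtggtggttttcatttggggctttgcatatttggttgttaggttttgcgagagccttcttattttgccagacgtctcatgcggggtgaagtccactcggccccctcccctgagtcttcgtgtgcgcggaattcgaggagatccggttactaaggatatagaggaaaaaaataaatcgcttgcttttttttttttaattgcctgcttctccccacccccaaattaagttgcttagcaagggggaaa
TGFBR2, chr3:30606351-30606650, plus strand: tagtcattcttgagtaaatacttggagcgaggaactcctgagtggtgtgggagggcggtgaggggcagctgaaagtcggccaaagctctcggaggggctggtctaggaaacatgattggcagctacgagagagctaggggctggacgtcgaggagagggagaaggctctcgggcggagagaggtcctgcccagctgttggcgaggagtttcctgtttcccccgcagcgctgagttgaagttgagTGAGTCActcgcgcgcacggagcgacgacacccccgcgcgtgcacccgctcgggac
SKIL, chr3:170357465-170357764, plus strand: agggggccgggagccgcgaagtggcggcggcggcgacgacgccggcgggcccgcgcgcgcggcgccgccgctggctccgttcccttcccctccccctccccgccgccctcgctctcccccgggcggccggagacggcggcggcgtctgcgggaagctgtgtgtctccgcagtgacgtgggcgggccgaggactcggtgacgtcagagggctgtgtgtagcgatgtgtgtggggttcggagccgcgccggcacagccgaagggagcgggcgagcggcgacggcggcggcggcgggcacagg
The SMAD6 window held GTCTAGAC at position -12, counted back from the transcript start. That motif is in 71 of 35116 windows in the table, which is 0.202%. The second window of TGFBR2 held TGAGTCA at position -6, a match to TGANTCA, which 7.71% of windows hold. No searched motif was found in the printed windows of SMAD7 and SKIL, nor in the 2 other windows of SMAD7. Among the remaining genes, the first window of SMURF2 held CAGACA at position -1, a motif that 16.9% of windows hold. Matches also lay in later windows of TGFBR1 and SMAD3. The G and C share of first windows was 68.0% for SMAD6, 48.3% for SMAD7, 42.3% for TGFBR2 and 79.0% for SKIL, and the median over the first windows of 27305 genes was 58.3%. The second window of TGFBR2, printed for its match, had 61.7%. These matches describe letters alone.

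Under the MOLM14 label, SMURF2 fell and the 3 other genes with usable rows were not called. SMAD7 had 1.75, 2.26 and 3.36 FPKM in EVI1 libraries, against 1.70, 1.64 and 1.51 FPKM in controls. Every EVI1 library lay above the controls, the first of them by little, and EVI1 replicate 3 was the highest. The gene was not called (log2 fold change 0.38, 95% interval -0.03 to 0.78, limma adjusted p = 0.103), but was called under quantile normalization (adjusted p = 0.0369) and without EVI1 replicate 1 (log2 fold change 0.53, adjusted p = 0.0322). Without EVI1 replicate 3 the log2 fold change was 0.20 (limma adjusted p = 0.306). SMURF2 had 9.03, 8.24 and 8.70 FPKM in EVI1 libraries, against 9.81, 11.3 and 11.7 FPKM in controls. It fell without overlap (log2 fold change -0.30, SE 0.09, limma adjusted p = 0.0200), a call that was lost when control replicate 2 or 3 or EVI1 replicate 2 or 3 was left out (adjusted p = 0.0623, 0.0642, 0.0603 and 0.0527 in that order).

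TGFBR1 had 34.28, 33.54 and 33.71 FPKM in EVI1 libraries labelled MOLM14, against 35.21, 34.35 and 34.38 FPKM in their controls. It was not called (log2 fold change -0.03, 95% interval -0.15 to 0.08, limma adjusted p = 0.606). TGFB1 had 66.0, 66.8 and 67.4 FPKM in EVI1 libraries, against 55.7, 63.2 and 68.4 FPKM in controls, with overlap, and was not called (log2 fold change 0.10, 95% interval -0.08 to 0.28, limma adjusted p = 0.304). So 1 of the 4 genes was called, a fall, where 54.2% of all tested rows under this label were called, 26.8% as falls. The 3 genes whose groups did not overlap stand beside 61.7% of all tested rows. In both groups the levels ran from TGFB1 through TGFBR1 and SMURF2 to SMAD7, with no overlap between neighbours.

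**Figure D3:**
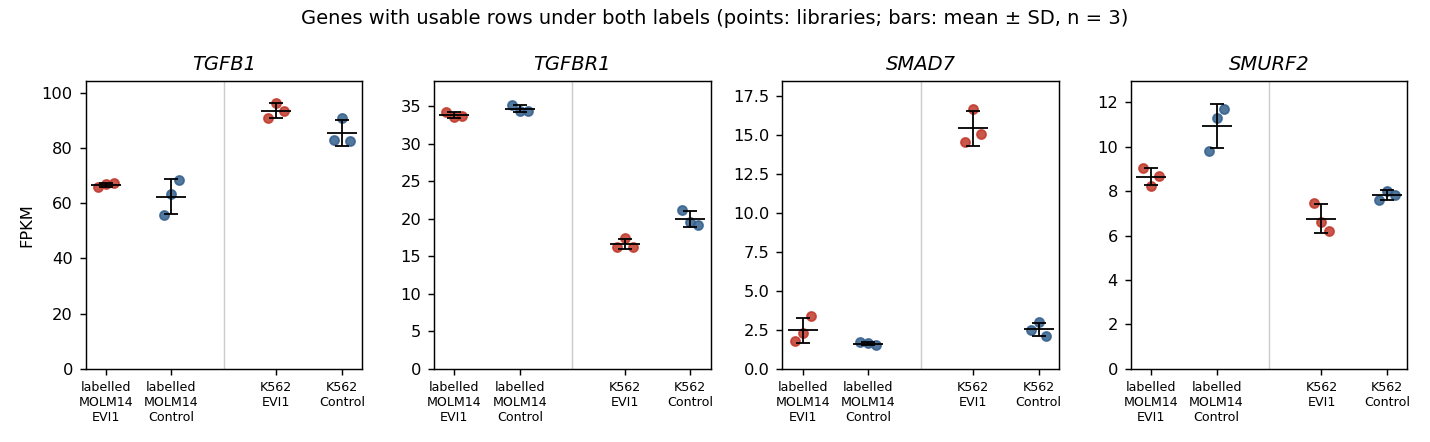
FPKM of the 4 genes with usable rows under both labels, with EVI1 at the left of control for each label; points are libraries, bars are mean ± SD (n = 3) and axes start at 0. SMAD7 averaged 2.46 FPKM in EVI1 libraries labelled MOLM14 and 15.4 FPKM in K562 EVI1 libraries; levels of both labels are shown without a test.

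The EVI1 effect on SMAD7 differed between the labels. The difference of log2 fold changes, labelled MOLM14 minus K562, was -1.85 for SMAD7 (SE 0.20, 95% interval -2.29 to -1.42, limma over 12 libraries, adjusted p = 2.03e-06). TGFBR1 had a difference of 0.22 (SE 0.09, adjusted p = 0.0466), which was not called under 13 of 18 alternatives. TGFB1 had a difference of -0.03 (95% interval -0.25 to 0.19, limma adjusted p = 0.807) and SMURF2 one of -0.12 (95% interval -0.38 to 0.15, limma adjusted p = 0.430). Thus 2 of the 4 genes were called, while 64.9% of all rows tested for the difference were, 34.1% with the higher effect under the MOLM14 label and 30.8% with the lower. The ratio of SMAD7 to TGFBR1 within a library was 0.0510, 0.0673 and 0.0996 in EVI1 libraries labelled MOLM14 and 0.0482, 0.0477 and 0.0439 in their controls, all under the K562 control ratios given above.

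Other genes of the pathway were read from 5 lists with 94 genes, of which 84 are not among the 10. In K562, 63 of these 84 passed the filter, and 31 rose, 9 fell and 23 were not called, with a median log2 fold change of 0.30 against 0.00500 over all tested genes. Over all tested genes in K562, 28.2% rose, 23.7% fell and 51.9% were called, which is the background for this count and for each list below. Since genes low in control pass the filter through the EVI1 libraries where they are high, these counts are a description. Under the MOLM14 label 46 had a usable row and 30 were tested, of which 8 rose, 8 fell and 14 were not called, with a median of -0.03. These shares are close to those of all tested rows under that label, of which 27.4% rose and 26.8% fell. The counts under this label are a description too, since GADD45B and ENG passed the filter there through the controls alone.

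Ligands, storage proteins and release factors gave 7 rises, 1 fall and 4 not called of 12 tested in K562. The rises included GDF15, a distant member of the ligand superfamily (log2 fold change 2.24), THBS1, which activates latent TGF-beta (1.64), and LTBP4, which binds latent TGF-beta in the matrix (0.70). NRROS, which anchors latent TGF-beta on myeloid cells, had the fall (-1.03). Among receptors, 6 rose, 3 fell and 3 were not called of 12 tested. ACVRL1, a type I receptor of endothelial cells, rose to 4.68 ± 0.373 FPKM in EVI1 libraries, against 1.23 ± 0.467 FPKM in controls (SD, n = 3 each; log2 fold change 1.37), and the coreceptor CD109 had a called log2 fold change of 1.11. CD109, with controls of 0.461 to 0.501 FPKM, and THBS1, with controls of 0.486 to 0.914 FPKM, passed the filter through the EVI1 libraries alone and so had to differ. The same holds for the receptors TGFBR2 and ACVR2A, the latter with controls of 0.73 to 0.88 FPKM. Both are in the count of 6 rises. The BMP type I receptors BMPR1A and ACVR1 fell (-0.51 and -0.49).

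Of 9 SMADs and anchor proteins tested in K562, 5 rose, 0 fell and 4 were not called. Besides SMAD6 and SMAD7 these were the adaptor DAB2 (log2 fold change 2.48), the common partner SMAD4 (0.92) and the receptor-regulated SMAD2 (0.72), the last named after its values were seen. SMAD4 averaged 49.4 ± 7.14 FPKM in EVI1 libraries and 25.6 ± 2.72 FPKM in controls (SD, n = 3 each). Of 24 inhibitors and ubiquitin regulators, 6 rose, 5 fell and 13 were not called. The ubiquitin ligase NEDD4L, which targets SMAD2, rose to 60.7 ± 11.9 FPKM in EVI1 libraries, against 19.1 ± 0.467 FPKM in controls (SD, n = 3 each), as did the corepressor TGIF1 (log2 fold change 0.67), while the decoy receptor BAMBI (-0.85), the SMAD4 regulator TRIM33 (-0.71) and TGIF2 (-0.57) fell.

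Known targets of the pathway gave 15 rises, 2 falls and 3 not called of 20 tested in K562, with a median log2 fold change of 0.72. Beside them stand the 28.2% rises and 23.7% falls of all tested genes. SMAD6, SMAD7 and SKIL are in that list too. ANGPTL4, with controls of 0.37 to 0.47 FPKM, and GADD45B, with controls of 0.673 to 0.990 FPKM, passed the filter through the EVI1 libraries alone. Their rises had to occur, and the count and median are a description. COL1A1, a collagen chain, had 21.8, 23.4 and 17.5 FPKM in EVI1 libraries, against 0.864, 2.39 and 1.95 FPKM in controls, and FN1, which encodes fibronectin, had a log2 fold change of 2.24. ID1 and KLF11 fell (-0.47 and -0.30). Summed levels of marker lists of other cells differed between the K562 groups in both directions. The summed fibroblast list of 6 genes, which includes COL1A1, stood at 31.6 to 36.9 FPKM in EVI1 and 4.09 to 8.37 FPKM in control libraries. Means were at least 1 FPKM for 2 and 3 of the 6 genes. DCN reached that in controls through replicate 3 alone (0.279, 0.176 and 3.49 FPKM), with a mean of 0.186 FPKM in EVI1 libraries. In EVI1 and control libraries COL1A2 averaged 12.3 and 2.8 FPKM, COL3A1 0.767 and 0.227 FPKM, and PDGFRB 0.246 and 0.198 FPKM. LUM was listed at 0 in each control and at 0.0612 to 0.0937 FPKM in EVI1 libraries. The summed list of 8 T and NK cell genes stood at 102 to 109 FPKM in EVI1 and 43.1 to 48.7 FPKM in control libraries, with 3 and 2 genes at 1 FPKM or more. The 6 intestinal epithelium genes summed to 24.0 to 31.65 FPKM in EVI1 and 52.9 to 58.3 FPKM in control libraries, mostly EPCAM, with means of 26.2 and 53.8 FPKM in those groups. The 6 megakaryocyte genes summed to 46.4 to 48.05 FPKM in EVI1 and 31.5 to 43.4 FPKM in control libraries, and their member ITGA2B averaged 18.3 FPKM in EVI1 and 5.95 FPKM in control libraries. The 10 monocyte and myeloid genes summed to 161 to 184 FPKM in EVI1 and 125 to 146 FPKM in control libraries. The part of these markers in the pathway results was not tested.

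**Figure D4:**
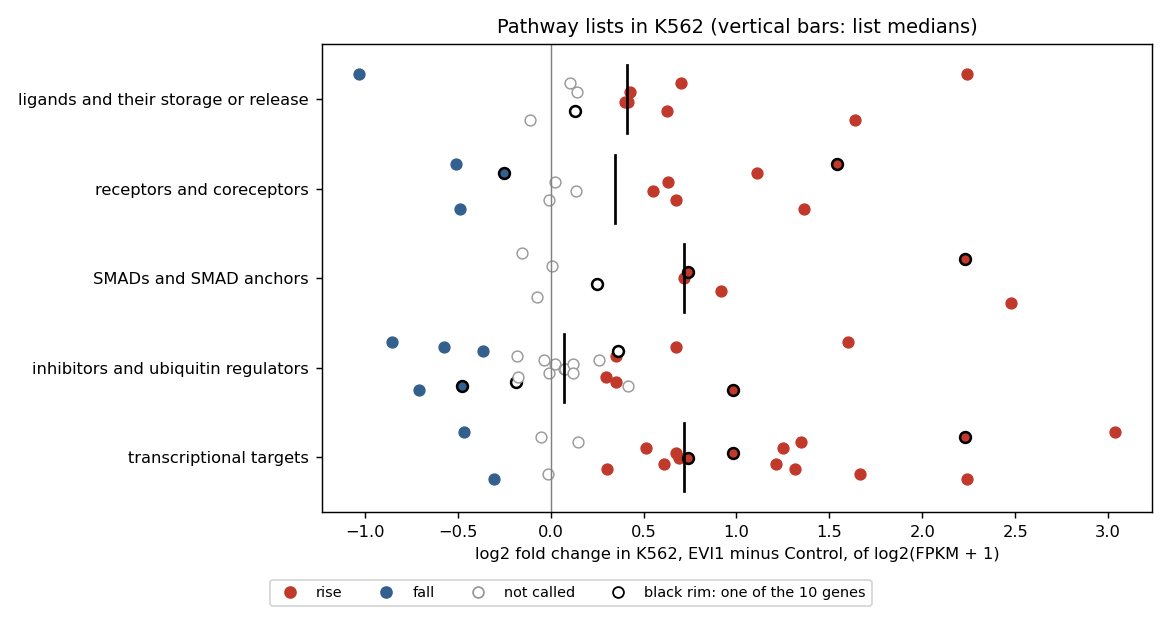
Log2 fold changes in K562, EVI1 minus control, of tested genes in 5 pathway lists, which share some genes; colour marks rises and falls, open grey symbols are not called, black rims mark the 10 TGF-beta genes and vertical bars are list medians. The medians lie between 0.08 for inhibitors and ubiquitin regulators and 0.72 for SMADs and for targets.

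Under the MOLM14 label, among rows with usable names, the targets ID2, ID3 and FN1 rose (log2 fold changes 0.65, 0.62 and 0.53) and GADD45B fell (-0.66). The latency protein LTBP1 fell to 20.4 ± 2.03 FPKM in EVI1 libraries, against 34.1 ± 1.07 FPKM in controls (SD, n = 3 each), while in K562 it rose to 16.0 ± 0.815 FPKM in EVI1 libraries, against 11.9 ± 0.776 FPKM in controls. The difference of its log2 fold changes, labelled MOLM14 minus K562, was -1.12 (limma adjusted p = 1.03e-06). TGFB3 fell (-0.90) and so did the coreceptor ENG (-0.80), the receptors ACVR1 (-0.71) and ACVR2B (-0.44), and RNF11 (-0.27), while the receptor ACVR2A rose (0.51). TGFB3 lay near the filter level of 1 FPKM in EVI1 libraries (0.473, 1.10 and 0.813 FPKM), against 1.81, 1.87 and 3.51 FPKM in controls. GADD45B, with EVI1 libraries at 0.474 to 0.605 FPKM, and ENG, with EVI1 libraries at 0.385 to 0.721 FPKM, passed the filter through the controls alone. Both therefore had to differ, and nothing is read from their falls. PPP1R15A, a phosphatase subunit that joins SMAD7 at the receptor, fell (-1.22), and STRAP, which acts with SMAD7, TGIF2 and the receptor-binding FKBP1A rose (0.43, 0.29 and 0.24). Marker levels under this label also differed between the groups. The 6 monocyte and myeloid genes with usable rows summed to 107 to 124 FPKM in EVI1 and 149 to 178 FPKM in control libraries, the 3 erythroid genes to 499.8 to 525 FPKM in EVI1 and 323 to 343 FPKM in control libraries, and EPCAM averaged 41.3 FPKM in EVI1 and 69.4 FPKM in control libraries. Their part in the pathway results under this label was not tested either.

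By the distance between log2 profiles over the 6 K562 libraries, each centred on its control mean, the 2 tested genes nearest to SMAD7 were SOD3 and GDF15 (Euclidean distances 0.185 and 0.191 log2 units). Nearest to TGFBR2 were IFIH1 and CASZ1 (0.130 and 0.132), and nearest to SKIL were GCH1 and CAMK2N1 (0.233 and 0.246). SMAD6 lay nearest to DNASE1L1 and TRPT1 (0.0303 and 0.0479), TGFBR1 to PARP3 and CDCA5 (0.0340 and 0.0432), and SMURF1 to SPN and YTHDF2 (0.0358 and 0.0420). Such distances mostly pick genes of like log2 fold change, as with 2.22 for SOD3 and 2.24 for GDF15 beside 2.23 for SMAD7. SOD3 averaged 4.11 FPKM in EVI1 and 0.0940 FPKM in control libraries, so its ratio of means was unlike that of SMAD7. Control means of IFIH1, CASZ1 and CAMK2N1 were 0.102, 0.605 and 0.331 FPKM. These neighbours are a description.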

How the data were processed

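Gene expression was measured by RNA sequencing in 12 libraries, grouped and numbered by their titles. Deposited values are FPKM; the submitters' processing notes name STAR, Cufflinks, Cuffnorm, hg38 and GRCh38, while tool versions, annotation release and use of strand are not given in the sources used here. The labels' extraction text names mouse small intestine, while organism and source name human cell lines. Coordinates come from GENCODE 29 by exact versioned identifier (9 of the 10 genes).

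Values were analysed as log2(FPKM + 1) with R 4.3.3 and limma 3.58.1 (mean-variance trend, two-sided, Benjamini-Hochberg over all tested rows), separately for each label, since gene names follow the columns of each label over different rows and joint scaling is not certain, and over 12 libraries for the difference of effects. Genes needed at least 1 FPKM in at least 3 libraries of a label. FPKM give no counts, so no counting intervals are given. The fits were tested on simulated data for K562, the MOLM14 label and the difference, in that order below. Of 100 changes of 1 log2 unit, 94, 98 and 100 were recovered, and of 100 changes of 0.5, 73, 70 and 78. False calls were 5.65%, 3.45% and 6.81% of all calls. Far fewer genes were changed there than were called in these data. None was as low in control as TGFBR2 or SMAD7, so the simulation does not cover such genes. Alternatives were a pseudocount of 0.1, no filter, a common FPKM sum, quantile normalization, no trend, a replicate block and leaving out each replicate. The genes and lists were chosen with earlier results of these data known. Named genes are the 10 genes, MECOM, up to 3 rises and 3 falls per list and label, and the 2 nearest profiles of each called gene.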

Additional observations from a re-analysis of the deposited data

Results flagged for a closer look

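SMAD7 and TGFBR1 are flagged because a test of the difference itself called unlike EVI1 effects under the labels. Of all rows tested for that difference, 64.9% were called, so a call alone does not set these genes apart. The difference of log2 fold changes, labelled MOLM14 minus K562, was -1.85 for SMAD7 (limma adjusted p = 2.03e-06), and SMAD7 was higher in 3 of 3 EVI1 libraries than in every control under each label. For TGFBR1 it was 0.22 (limma adjusted p = 0.0466), and TGFBR1 was lower in 3 of 3 EVI1 libraries than in every control under each label. Under the MOLM14 label only the gap between 34.28 and 34.35 FPKM separated its groups, and TGFBR1 was not called there (limma adjusted p = 0.606). Groups did not overlap for 60.6% of all tested genes in K562 and for 61.7% of all tested rows under the MOLM14 label. The TGFBR1 difference was lost under 13 of 18 alternatives, among them a common FPKM sum (0.12, limma adjusted p = 0.235) and the replicate block (limma adjusted p = 0.0697), while the SMAD7 difference was called under all 18. Whether both labels were normalized together is not given, and the libraries labelled MOLM14 express GATA1 and list FLT3 at or near 0; the part of either in these differences was not tested. Groups of 3 libraries are too small for a search for single outlying libraries.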

How the results depend on the processing

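In K562 the 12 alternatives gave 3 to 5 rises among the 10 genes, and SMAD6, SMAD7 and SKIL were called under each. TGFBR2 could not be tested when an EVI1 library was left out, because it then failed the filter. In the other 9 alternatives its log2 fold change was between 1.19 and 2.88 and was called in each. Of these 9, all but the fit with no filter required TGFBR2 to differ. The count of falls was 1 with a common FPKM sum and 1 to 2 when single replicates were left out, as TGFBR1 lost its call. It was 3 with quantile normalization, as SMURF2 gained a call. Under the MOLM14 label the count of rises was 1 with quantile normalization and 0 to 1 without single replicates, and the count of falls was 0 to 1 without single replicates. The other pathway genes called as rises there numbered 5 to 8 without single replicates. For the difference of effects, the count of genes with the labelled MOLM14 effect above the K562 effect was 0 with quantile normalization, 0 with a common FPKM sum, 0 with the replicate block and 0 to 1 without single replicates. The difference for TGFB1 ranged from -0.109 to 0.036 without single replicates, above 0 only without MOLM14 control replicate 3, and that for SMURF2 was 0.04 with quantile normalization; none of these was called. Same-numbered libraries did not deviate together (Pearson r of deviations -0.21, -0.05 and 0.13 in K562, and -0.01, -0.03 and -0.05 under the MOLM14 label), so the numbers were not taken as pairs. The fit with the replicate block called SMAD3 in K562 (log2 fold change 0.25, limma adjusted p = 0.0484) and did not call the TGFBR1 difference (adjusted p = 0.0697). The cause of these changes was not tested.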
